A study of Homo sapiens with 32 samples.

Results

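The erythroleukaemia lines F-36P, HEL, KMOE-2, OCI-M1 and OCI-M2 are 5 of the 32 human cell lines of acute myeloid leukaemia (AML) in the series, all established lines, chosen by the line named in each sample's title. Total RNA of each line was hybridised to 1 Affymetrix expression array, with no treatment, and the design text relates the series to PIM kinase inhibitors. The other side was 22 arrays of lines of other AML types. KG-1 was averaged with its subline KG-1A and HL-60 with PLB-985, which left 20 non-erythroid units. The megakaryoblastic lines MO7E, MOLM-16 and SET2 were kept out of the test and are described beside it, and NOMO-1 and GF-D8, whose arrays have a high median signal, were set aside. The labels name each line but not its AML type, so the assignment to the 2 sides rests on what is known of the lines. HEL and KMOE-2 grew in RPMI with fetal bovine serum, and F-36P in RPMI with 10% of this serum plus 5 ng/ml of the cytokine IL-3. OCI-M1 and OCI-M2 grew in IMDM with 20% fetal bovine serum. Among the non-erythroid arrays, 15 were of lines in RPMI and 2 (SH-2 and SHI-1) in IMDM with 20% serum. A further 3 were in alpha-MEM with added SCF or GM-CSF, while no medium was given for 2. Each line is 1 established culture on 1 array, so p-values measure the spread between lines and not between cultures of a line.

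Erythroid cells arise from a progenitor that they share with megakaryocytes. The transcription factors GATA1, TAL1 and KLF1 switch on the globin, heme and red cell membrane genes, and erythropoietin acts through its receptor and the kinase JAK2. Granulocytes and monocytes instead depend on PU.1 (gene SPI1) and C/EBP-alpha (CEBPA), and store proteases such as elastase and myeloperoxidase in azurophil granules. Erythroleukaemia is the form of AML whose blasts carry erythroid features, and lines made from it are used as models of immature red cell precursors.

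Levels are given as log2 of the deposited signal plus 16, and a difference is the mean of the erythroleukaemia lines minus the mean of the non-erythroid units on that scale, which understates the change of genes of low signal. Errors after a ± sign are standard errors, and adjusted p-values are from limma over all 14358 genes tested, with 0.05 as the threshold for a call. With all 5 lines, 673 genes were called higher (4.69% of those tested) and 771 lower (5.37%). Of these, 325 were at least 4-fold higher and 258 at least 4-fold lower. The median difference over all genes tested was -0.066. Of the genes named by rule (given under processing), 13 passed the filter on low signal through the erythroleukaemia lines alone. A difference was thus built in and their p-values are no support: HBBP1, HBZ, ST6GALNAC1, NTS, NCKAP1, CR1L, RIPOR3, HBE1, ALAS2, KEL, RHD, PKLR and TUBB1. Among further list members in the text, the same held for EPB42, SLC4A1, ACKR1, SLC14A1, ITGB3, PF4 and PPBP. Each gene is given by its probe set of highest mean, and others can differ in size: the smallest difference of any probe set was 1.06 for HEPH, 0.29 for CA1, 0.18 for HBE1, 0.03 for ITGA2B and 0.01 for AKR1C2. Only 38 genes (0.265%) had all 5 lines above all 20 units, and 45 (0.313%) had all 5 below.

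The erythroleukaemia arrays differed from part of the other side in RNA quality. For GAPDH, the 3′ control probe set over the 5′ one, a ratio that is larger in degraded RNA, was 0.88 to 0.974 on the 5 erythroleukaemia arrays. It was 0.871 to 7.08 on the non-erythroid arrays and above 2 on 6 of them (THP-1, MOLM-13, NB-4, GDM-1, ML-2 and HL-60). Without these 6 arrays 468 genes were called higher and 524 lower, of which 441 and 485 were among the calls of all arrays. The direction of the calls also depended on scaling: 46.6% of them were higher as deposited and 61.7% after each array was centred on its median, where the median difference over all genes was 0.054.

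**Figure D1:**
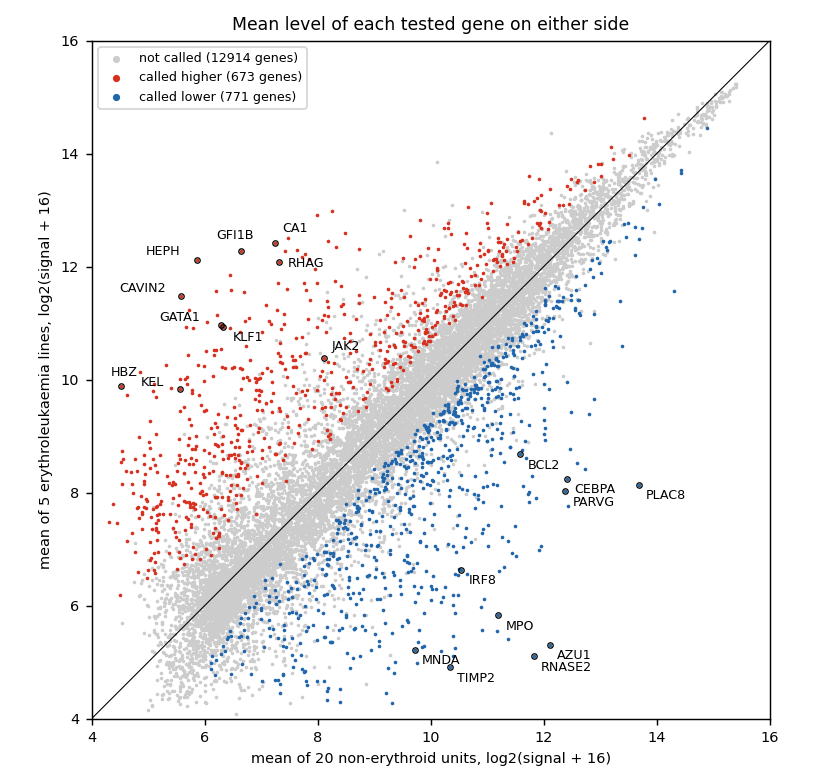
Mean level of each of the 14358 tested genes in the 20 non-erythroid units (x axis) and in the 5 erythroleukaemia lines (y axis), both as log2(signal + 16), with the line of equal level. Red points are the 673 genes called higher and blue points the 771 called lower, and HEPH, CAVIN2 and GFI1B lie farthest above the line and AZU1 and RNASE2 farthest below it among the genes labelled.

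KMOE-2 stood apart from the other 4 lines, so each comparison was repeated without it. With F-36P, HEL, OCI-M1 and OCI-M2 alone, 601 genes were called higher (4.19%) and 638 lower (4.44%), of which 499 and 564 were also called with all 5 lines. A further 174 higher and 207 lower calls were made only with KMOE-2 included. The counts also fell when another of the 5 lines was left out. They were 442 higher and 500 lower without F-36P, and 462 and 518 without OCI-M1. Without OCI-M2 they were 477 and 582, and without HEL 580 and 586. Within the 4 lines, leaving out F-36P gave 362 and 378, leaving out OCI-M1 gave 396 and 409, and leaving out OCI-M2 gave 384 higher. HEL and KMOE-2, the only lines in RPMI without a cytokine, gave 64 higher and 58 lower genes against the 13 units of that medium.

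Globin genes were higher in the erythroleukaemia lines as a group, and KMOE-2 was the exception. In bulk RNA, fewer cells of a type and less RNA per cell cannot be told apart. All 6 globin-list genes tested were called higher, with a median difference of 3.71, or 4.29 without KMOE-2. HBE1 and HBZ passed the filter on low signal through the erythroleukaemia lines alone, so for these genes a difference was built in. Probe sets for the alpha and gamma globin genes match several genes and were not used, and HBM was below the filter, although its level was 9.64 in OCI-M2 against 4.26 to 5.38 elsewhere on both sides.

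HBZ, the embryonic alpha-like globin, had a level of 12.62 in F-36P, 10.64 in HEL, 4.57 in KMOE-2, 9.72 in OCI-M1 and 11.83 in OCI-M2, against 4.17 to 6.25 in the 20 units (median 4.38). Thus 4 lines lay far above every non-erythroid unit and KMOE-2 lay within their range. The difference was 5.36 ± 0.66, which is 41-fold (adjusted p = 5.88e-06). HBE1, the embryonic beta-like globin, had a level of 9.46 in F-36P, 14.08 in HEL, 7.04 in KMOE-2, 8.69 in OCI-M1 and 10.8 in OCI-M2, against 4.74 to 7.02 (median 5.47). It was the only globin gene with all 5 lines above all 20 units, KMOE-2 by the smallest margin, and its difference was 4.45 ± 0.62 (21.9-fold, adjusted p = 2.61e-05). The p-values of HBZ and HBE1 are no support, since both passed the filter through the erythroleukaemia lines alone. HBD, the adult delta globin, ranged from 7.45 in KMOE-2 to 12.11 in OCI-M2, with the non-erythroid units from 4.31 to 9.71. GDM-1 at 9.71 was above KMOE-2 and the difference was 4.38 ± 0.76 (adjusted p = 0.000404).

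HBB is the adult beta globin, and its probe set may also detect related globin transcripts. Its level was 9.2 in F-36P, 10.74 in HEL, 8.26 in KMOE-2, 9.91 in OCI-M1 and 10.93 in OCI-M2, against 7.06 to 8.93 (median 7.77). The difference was 2 ± 0.32, which is 4-fold (adjusted p = 0.000157). All lines but KMOE-2 cleared every unit. AHSP, the chaperone of free alpha globin, was higher by 1.71 ± 0.4 (adjusted p = 0.00676), and HBQ1, a theta globin, by 3.05 ± 0.82 (adjusted p = 0.0172). Without HEL or without OCI-M2 the adjusted p of HBQ1 rose to 0.0677 and 0.0657.

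Among the erythroid transcription factors, 6 of 15 were called higher and 1 lower, with a median difference of 1.07. GATA1, the master factor of red cells and megakaryocytes, was the most clear-cut. Its level was 10.98 in F-36P, 11 in HEL, 10.27 in KMOE-2, 11.25 in OCI-M1 and 11.36 in OCI-M2, against 5.2 to 8.23 (median 6.07) in the non-erythroid units. No line overlapped the other side, and the difference was 4.69 ± 0.41 (25.9-fold, adjusted p = 7.85e-08).

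GFI1B, a repressor that acts in erythroid and megakaryocytic cells, had the largest difference of the list at 5.62 ± 1.21 (49.3-fold, adjusted p = 0.00355). Its level was 11.4 in F-36P, 12.78 in HEL, 12.21 in KMOE-2, 11.74 in OCI-M1 and 13.22 in OCI-M2. The non-erythroid units ran from 4.51 to 11.97 around a median of 4.97, so most were far below and GDM-1, the highest, overlapped. TAL1, a partner of GATA1, behaved likewise, at 11.54 to 13.21 in the 5 lines against 5.55 to 12.94 with GDM-1 again highest. Its difference was 4.29 ± 1.08 (adjusted p = 0.0116), and 1 of its 4 probe sets had the opposite sign.

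KLF1, the activator of adult globin and membrane genes, had a level of 11.47 in F-36P, 11.99 in HEL, 6.79 in KMOE-2, 11.82 in OCI-M1 and 12.64 in OCI-M2, against 4.16 to 9.27 (median 6.13). The other 4 lines were above every unit, while KMOE-2 was near the non-erythroid median. The difference was 4.62 ± 0.68 (24.5-fold, adjusted p = 6.52e-05), and 5.65 ± 0.57 without KMOE-2. Smaller differences were found for the GATA1 cofactor ZFPM1, at 1.16 ± 0.33 (adjusted p = 0.0264), and for LDB1, which bridges the TAL1 complex, at 1.07 ± 0.34 (adjusted p = 0.0429). ZBTB7A, a repressor of fetal globin, was the one member called lower, by 1.71 on the log2 scale (SE 0.36, adjusted p = 0.00277). All 5 lines were below all 20 units, F-36P by most at 6.04. GATA2, the progenitor GATA factor, was not called (difference 1.32, adjusted p = 0.169), and nor were LMO2, NFE2 and SOX6.

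Promoter sequences are shown for 5 called genes of the globin, transcription factor and membrane lists, because these genes were high together and GATA and KLF factors are known to act at such promoters. Each is the 250 bases before the RefSeq transcription start on GRCh38.p14, written 5′ to 3′ on the gene's strand. Capitals mark matches, on either strand, to the GATA motifs AGATAA and TGATAA (their reverse complements read TTATCT and TTATCA) and to the KLF motif CCNCNCCC, and overlapping KLF matches run together.
HBD, chr11:5234484-5234733 (minus strand): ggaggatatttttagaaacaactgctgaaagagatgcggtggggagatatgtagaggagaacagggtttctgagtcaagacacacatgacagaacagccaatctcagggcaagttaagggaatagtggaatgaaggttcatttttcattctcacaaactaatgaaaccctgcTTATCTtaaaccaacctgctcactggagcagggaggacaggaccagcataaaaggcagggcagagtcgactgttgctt
GATA1, chrX:48786340-48786589 (plus strand): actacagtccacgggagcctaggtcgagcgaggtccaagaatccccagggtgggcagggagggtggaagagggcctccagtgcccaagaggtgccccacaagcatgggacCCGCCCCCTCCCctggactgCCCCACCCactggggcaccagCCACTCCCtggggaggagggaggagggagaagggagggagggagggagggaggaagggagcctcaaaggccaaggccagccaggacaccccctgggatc
KLF1, chr19:12887202-12887451 (minus strand): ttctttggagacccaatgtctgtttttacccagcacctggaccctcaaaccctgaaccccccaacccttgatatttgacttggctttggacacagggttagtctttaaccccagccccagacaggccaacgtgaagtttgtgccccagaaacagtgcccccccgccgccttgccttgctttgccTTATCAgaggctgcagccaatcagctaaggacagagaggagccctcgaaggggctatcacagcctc
RHAG, chr6:49636840-49637089 (minus strand): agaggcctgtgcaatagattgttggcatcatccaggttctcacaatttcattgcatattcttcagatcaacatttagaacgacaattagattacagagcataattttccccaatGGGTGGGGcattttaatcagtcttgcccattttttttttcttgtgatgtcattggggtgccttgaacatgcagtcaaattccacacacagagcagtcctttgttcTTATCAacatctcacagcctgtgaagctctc
KEL, chr7:142962364-142962613 (minus strand): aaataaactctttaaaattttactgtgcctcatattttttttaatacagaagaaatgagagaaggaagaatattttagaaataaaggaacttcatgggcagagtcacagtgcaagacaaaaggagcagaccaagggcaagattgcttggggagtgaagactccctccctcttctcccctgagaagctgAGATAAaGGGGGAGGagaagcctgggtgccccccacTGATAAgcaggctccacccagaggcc
The HBD match starts 78 bases before the start site, that of KLF1 66 bases before it and the GATA match of RHAG 31 bases before it. KEL held both GATA motifs, 62 and 26 bases before its start. In GATA1 there were 4 KLF matches, from 140 to 99 bases before the start, and no GATA match, and the windows of GFI1B and RHD, examined by the same rule, held no match and 1 AGATAA with 1 KLF match respectively. Over all windows of this length in the RefSeq table, 14.9% of 27305 held either GATA motif, against 8.4% of the 11498 tested genes with a window. The share was 13.1% (72 of 551) for genes called higher and 9.17% (56 of 611) for genes called lower. For CCNCNCCC the shares were 52.4% of all windows, 69.1% of tested genes, 65.9% of those higher and 71% of those lower. The mean GC content of these sets differed (56.9%, 63.3%, 61.9% and 64.8%), so the shares are a description only. Of the other called globin and membrane genes that the rule reached, HBZ, HBE1, HBQ1, HBB, AHSP and XK had no entry in the table.

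Red cell membrane and blood group genes were higher, with 11 of the 17 tested called and none lower, and a median difference of 2.45. EPB42, RHD, KEL, ACKR1 and the uncalled SLC4A1 and SLC14A1 passed the filter through the erythroleukaemia lines alone, so part of this count and median was built in. RHAG, the Rh-associated glycoprotein that anchors the Rh complex, had a level of 11.61 in F-36P, 12.18 in HEL, 12.79 in KMOE-2, 11.51 in OCI-M1 and 12.35 in OCI-M2, against 6.3 to 11.49 (median 6.99). All 5 lines were above all units, although KG-1/KG-1A at 11.49 came close, and the difference was 4.78 ± 0.5 (27.4-fold, adjusted p = 6.38e-07). KEL, the Kell blood group protease, also separated the sides, at 10.82, 10.4, 8.12, 9.97 and 9.82 in the same order of lines against 4.61 to 7.01. KMOE-2 was its lowest line and the difference was 4.25 ± 0.38 (19.1-fold, adjusted p = 7.85e-08). That p-value is no support, because KEL passed the filter through the erythroleukaemia lines alone.

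ANK1, the ankyrin that ties band 3 to spectrin, was the third member with all 5 lines above all units, and its difference was 2.5 ± 0.28 (5.66-fold, adjusted p = 1.7e-06). XK, the partner of Kell, was higher by 4.45 ± 1.02 (adjusted p = 0.00591), with NB-4 at 12.2 inside the range of the 5 lines, 10.78 to 13.08. RHD, the Rh D antigen, was 9.57 in F-36P, 11.96 in HEL, 4.87 in KMOE-2, 7.51 in OCI-M1 and 9.38 in OCI-M2, and its difference was 3.1 ± 0.6 (adjusted p = 0.00119). As RHD passed the filter through the erythroleukaemia lines alone, this p-value is no support. RHD and its copy RHCE are nearly identical, so its signal may include RHCE. EPB42, the protein 4.2 that links band 3 to the skeleton, was highest in HEL at 12.21, and F-36P, OCI-M1 and OCI-M2 at 6.63 to 7.75 were also above every unit, while KMOE-2 at 4.91 was not. SLC4A1, band 3 itself and a marker of late erythroid cells, was not called (1.05 ± 0.37, adjusted p = 0.0736), and was highest in OCI-M2 at 8.5. Without KMOE-2 its difference was 1.36 ± 0.39 (adjusted p = 0.0296). Since SLC4A1 passed the filter through the erythroleukaemia lines alone, a difference was built in and this p-value is no support.

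Heme synthesis showed smaller differences than the globins, with 4 of 13 genes called higher, none lower, and a median of 0.74. UROD, which makes coproporphyrinogen, was higher by 1.87 ± 0.32 (3.65-fold, adjusted p = 0.000358), and CPOX, the next enzyme of the pathway, by 1.67 ± 0.3 (3.17-fold, adjusted p = 0.000568). CPOX was 12.58 in F-36P, 13.18 in HEL, 11.66 in KMOE-2, 12.8 in OCI-M1 and 13.18 in OCI-M2 against 9.67 to 12.3, so all lines but KMOE-2 cleared the other side. ALAS2, the erythroid form of the first enzyme, passed the filter through the erythroleukaemia lines alone. Its probe set of highest mean was 5.56 to 7.77 against 4.43 to 6.55, a difference of 1.08 ± 0.32, while its other probe set differed by 5.2. PPOX was higher by 0.95 ± 0.27 (adjusted p = 0.0257) but lost its call when probe sets were averaged (adjusted p = 0.378). ALAS1, the housekeeping form, was 10.03 to 12.09 in the 5 lines and 10.21 to 12.69 in the units.

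Of 11 iron genes, 3 were called higher and none lower, and the median was 0.31. HEPH, a copper ferroxidase that works with ferroportin, had the largest difference of all genes called higher. Its level was 12.69 in F-36P, 10.86 in HEL, 12.2 in KMOE-2, 12.62 in OCI-M1 and 12.15 in OCI-M2, against 4.34 to 9.71 (median 5.56). All 5 lines were above every unit, HNT-34 being the highest of these, and the difference was 6.24 ± 0.6 (75.7-fold, adjusted p = 1.73e-07). SLC40A1, ferroportin itself, was higher by 3.58 ± 1.01 (adjusted p = 0.0239) and TFR2, the transferrin receptor that joins the erythropoietin receptor, by 3.24 ± 0.81 (adjusted p = 0.0111). Both were in the non-erythroid range in KMOE-2. The main transferrin receptor TFRC was high everywhere, 12.78 to 14.99 in the lines against 12.86 to 14.93, and was not called (difference -0.02, adjusted p = 0.981).

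Red cell enzymes were split, with 4 of 14 higher, 2 lower and a median of 0.27. CA1, the abundant carbonic anhydrase of red cells, had a level of 13.92 in F-36P, 14.54 in HEL, 7.44 in KMOE-2, 11.34 in OCI-M1 and 14.83 in OCI-M2, against 6.42 to 8.04 (median 7.29). KMOE-2 lay at the non-erythroid median and the other 4 lines far above the range, and the difference was 5.17 ± 0.64 (35.9-fold, adjusted p = 5.88e-06). BLVRB, a flavin and biliverdin reductase of red cells, was higher by 3 ± 0.69 (adjusted p = 0.00622) and hexokinase HK1 by 2.47 ± 0.72 (adjusted p = 0.0277). PKLR, the red cell pyruvate kinase, was 2.54 ± 0.46 higher but passed the filter through the erythroleukaemia lines alone. The call of HK1 was lost without F-36P, HEL, OCI-M1 or OCI-M2 in turn, with adjusted p up to 0.0776. The members called lower were catalase and adenosine deaminase (ADA), the latter with a difference of -1.59 ± 0.51 (adjusted p = 0.0447). Catalase was no longer called without KMOE-2.

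Genes of red cell maturation gave few calls, with 2 of 13 called higher and a median of 0.62. TRIM10, a ubiquitin ligase of erythroid cells, was 11.98 in F-36P, 12.69 in HEL, 7.58 in KMOE-2, 7.38 in OCI-M1 and 10.5 in OCI-M2 against 5.72 to 10.11, and was higher by 3.14 ± 0.61 (adjusted p = 0.0013). FBXO7 was higher by 0.72 ± 0.2 (adjusted p = 0.019), with KMOE-2 at 11.44 just below the lowest non-erythroid unit (11.48), and its call was lost without F-36P, OCI-M1 or OCI-M2.

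Transcripts of the erythropoietin receptor and of its kinase were higher, the kinase in 3 of the 5 lines. In the list of erythropoietin and JAK-STAT genes 5 of 20 genes were called higher, none lower, and the median was 0.58. EPOR, the erythropoietin receptor, was 10.4 in F-36P, 10.22 in HEL, 10.03 in KMOE-2, 10.98 in OCI-M1 and 11.27 in OCI-M2, against 8.41 to 10.19 (median 9.46). All lines but KMOE-2 cleared the units, with a difference of 1.21 ± 0.27 (2.31-fold, adjusted p = 0.00471). 1 of its 5 probe sets had the opposite sign. JAK2, the kinase bound to the receptor, was 11.56 in F-36P, 10.86 in HEL, 8.36 in KMOE-2, 13.23 in OCI-M1 and 7.93 in OCI-M2, against 6.7 to 9.21 (median 8.23). Thus OCI-M1, F-36P and HEL were above every unit, while KMOE-2 and OCI-M2 lay at the non-erythroid median, and the difference was 2.27 ± 0.53 (adjusted p = 0.00675).

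Downstream, STAT3 was higher by 1.33 ± 0.3 (adjusted p = 0.00549), and BCL2L1, the BCL-XL survival protein of late erythroblasts, by 1.67 ± 0.38 (3.19-fold, adjusted p = 0.00549). BCL2L1 was 10.69 in F-36P, 11.39 in HEL, 10.79 in KMOE-2, 10.75 in OCI-M1 and 11.03 in OCI-M2 against 7.17 to 10.7 (median 9.35), and only F-36P lay below the highest unit, GDM-1. PIM2, a survival kinase and a target of the inhibitors named in the design, was 10.27, 11.09, 8.85, 12.06 and 10.35 in the same order against 8.25 to 10.42, with a difference of 1.42 ± 0.34 (adjusted p = 0.00881). Its adjusted p was 0.0613 without OCI-M1. PIM1 differed by 0.83 ± 1.03 (adjusted p = 0.656) and PIM3 by -0.64 ± 0.27 (adjusted p = 0.138), and neither passed.

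Azurophil granule genes were the most strongly lower group. In this list 7 of 14 tested were called lower, none higher, and the median difference was -2.37. AZU1, azurocidin, was 4.79 in F-36P, 4.54 in HEL, 5.94 in KMOE-2, 6.31 in OCI-M1 and 4.97 in OCI-M2, against 4.66 to 14.9 (median 12.83). All 5 lines were at the bottom of the non-erythroid range, near the floor of the scale, and the difference was -6.8 ± 1.27 (111-fold, adjusted p = 0.000941). RNASE2, the eosinophil-derived neurotoxin, was 4.5 to 5.43 in the 5 lines and 5.86 to 14.22 in the units (median 12.39). It was the one member with all lines below all units, at a difference of -6.73 ± 0.98 (106-fold, adjusted p = 5.25e-05).

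The serine proteases and myeloperoxidase were variable on the non-erythroid side. ELANE, neutrophil elastase, was 4.45 to 8.32 in the 5 lines, OCI-M1 being highest, and 4.45 to 15.43 in the units (median 13.14). Its difference was -5.64 ± 1.82 (adjusted p = 0.0469), and the adjusted p was 0.0968 without KMOE-2. MPO, at 5.43 to 6.46 against 5.09 to 15.33, differed by -5.38 ± 1.6 (adjusted p = 0.0311), or 0.0585 without KMOE-2. PRTN3, proteinase 3, differed by -5.96 ± 1.52 (adjusted p = 0.0124) and CTSG, cathepsin G, by -4.91 ± 1.21 (adjusted p = 0.00987), with KMOE-2 highest of the 5 for CTSG at 9.84. Serglycin (SRGN), the granule proteoglycan, was lower by -2.72 ± 0.72 (adjusted p = 0.0156), lowest in OCI-M2 at 6.04. MS4A3, another gene of the list, did not follow, with levels of 10.9 in F-36P, 13.69 in HEL, 4.84 in KMOE-2, 13.92 in OCI-M1 and 11.05 in OCI-M2 against 4.26 to 14.36.

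Monocyte genes were lower for 4 of 14 tested, with none higher and a median of -1.12. MNDA, the myeloid nuclear antigen, was 4.69 to 5.62 in the lines against 4.28 to 13.61 (median 10.03), a difference of -4.5 ± 1.23 (adjusted p = 0.0192). S100A8 and S100A9, the subunits of calprotectin, differed by -4.98 ± 1.47 (adjusted p = 0.0304) and -3.87 ± 1.22 (adjusted p = 0.0424), and the M-CSF receptor CSF1R by -2.52 ± 0.75 (adjusted p = 0.0316). These 3 lost their call without KMOE-2, with adjusted p of 0.0684, 0.0724 and 0.0688. The list includes CD36, which erythroid cells also express: it was 11.2 in HEL, 10.39 in OCI-M1 and 11.47 in OCI-M2 but 4.61 in F-36P and 4.07 in KMOE-2, and was not called (adjusted p = 0.403).

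Myeloid transcription factors were lower for 7 of 16, with none higher and a median of -1.31. CEBPA, the factor of granulocyte commitment, was 10.21 in F-36P, 6.86 in HEL, 8.84 in KMOE-2, 7.9 in OCI-M1 and 7.37 in OCI-M2, against 9.74 to 14.28 (median 12.75). Only F-36P overlapped the units, and the difference was -4.19 ± 0.62 (18.2-fold, adjusted p = 6.75e-05). IRF8, which directs monocyte fate, was 6.36 to 6.92 in the lines and 7.33 to 13.64 in the units, with no overlap and a difference of -3.92 ± 1.04 (adjusted p = 0.0167). GFI1, the granulocytic paralogue of GFI1B, was lower by a difference of -3.91 ± 0.64 (15.1-fold, adjusted p = 0.000223), and IRF5 by -2.87 ± 0.64 (adjusted p = 0.00475). GFI1 and GFI1B thus lay on opposite sides. SPI1, which encodes PU.1, was not called: it was 7.54 to 8.89 in the lines and 6.72 to 9.61 in the units, with a difference of -0.77 ± 0.34 (adjusted p = 0.148).

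Leukocyte surface and signalling genes were lower for 7 of 24, none higher, with a median of -1.05. ITGAL, the LFA-1 alpha chain, was 5.43 to 5.69 in 4 lines and 7.92 in OCI-M1 against 6.15 to 13.74, a difference of -4.39 ± 0.88 (21-fold, adjusted p = 0.00192). PARVG, an actin-linked parvin of blood cells, was below all units in all 5 lines and differed by -4.36 ± 0.56 (20.5-fold, adjusted p = 8.62e-06). It was 10.19 in F-36P, 9.09 in HEL and 10.22 in KMOE-2 but 5.04 in OCI-M1 and 5.57 in OCI-M2. FLT3, the receptor often mutated in AML, differed by -3.87 ± 0.91 (adjusted p = 0.0069) and CORO1A, a leukocyte coronin, by -3.07 ± 0.38 (adjusted p = 5.88e-06).

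BCL2, the survival gene, was lower while its relative BCL2L1 was higher. BCL2 was 9.42 in F-36P, 7.88 in HEL, 8.04 in KMOE-2, 10.81 in OCI-M1 and 7.23 in OCI-M2, against 10.84 to 12.35 (median 11.61). All 5 lines were below all 20 units, OCI-M1 by the smallest margin, and the difference was -2.92 ± 0.37 (7.55-fold, adjusted p = 7.44e-06). These were the only calls among 15 genes of the BCL2 family, 1 each way. That is close to the shares over all genes tested, 4.69% higher and 5.37% lower. The family median was -0.13, and MCL1 was 12.76 to 13.1 in the lines against 11.97 to 14.03.

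**Figure D2:**
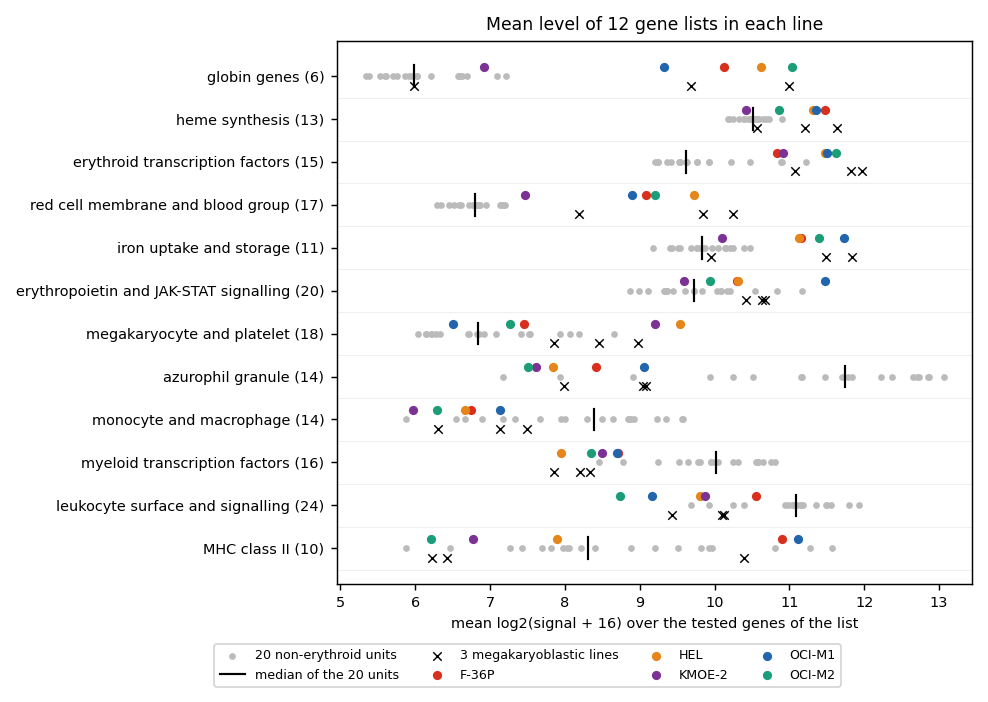
Mean log2(signal + 16) over the tested genes of 12 lists (number in brackets) in each line: coloured points are the 5 erythroleukaemia lines, grey points the 20 non-erythroid units with their median as a black bar, and crosses the 3 megakaryoblastic lines. In the globin list KMOE-2, at 6.92, lies in the non-erythroid range of 5.34 to 7.21 while the other 4 lines lie at 9.33 to 11.03. In the azurophil granule list all 5 lines lie at 7.51 to 9.06 against a non-erythroid median of 11.74. The units there range from 7.17 (HNT-34) to 13.06, and KG-1/KG-1A and GDM-1 also lie among the 5 lines.

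Several of the largest differences lay outside the lists. CAVIN2, a caveola coat protein also found in platelets, was 11.56 in F-36P, 11.55 in HEL, 12.78 in KMOE-2, 10.24 in OCI-M1 and 11.28 in OCI-M2, against 4.07 to 8.8 (median 5.01). It separated the sides with a difference of 5.9 ± 0.73 (59.8-fold, adjusted p = 5.88e-06). GMPR, a guanosine monophosphate reductase, did so too, at 5.41 ± 0.83 (42.6-fold, adjusted p = 9.32e-05), as did ST6GALNAC1, a sialyltransferase, at 5.29 ± 0.51 (39-fold). RIPOR3 also had all 5 lines above all units, with a difference of 4.83 ± 0.43 (28.5-fold). ST6GALNAC1 and RIPOR3 each had only 1 non-erythroid unit above the filter level and passed through the erythroleukaemia lines. PLOD2, a collagen lysyl hydroxylase, was higher by 5.37 ± 1 (adjusted p = 0.000911), with OCI-AML5 at 11.44 among the lines.

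NTS, which encodes neurotensin, was 11.92 in F-36P, 11.24 in HEL, 9.84 in KMOE-2, 7.48 in OCI-M1 and 14.2 in OCI-M2, against 4.16 to 9.49 (median 5.47). OCI-M1 lay inside the range of the units, and the difference was 5.26 ± 0.69. HBBP1, a beta-like globin pseudogene, was high in all lines but KMOE-2 (difference 5.53 ± 0.77), and its probe set may also detect related globin transcripts. CNRIP1 (5.12 ± 0.92, adjusted p = 0.000583) and NCKAP1, a subunit of the actin regulator WAVE (5.12 ± 0.57), complete the 12 genes of largest increase. NTS, HBBP1 and NCKAP1 passed the filter through the erythroleukaemia lines alone. Without KMOE-2 the next 6 were MYL4, the embryonic atrial myosin light chain, with BEX4, KLF1, CR1L, DNAJC6 and RIPOR3. MYL4 was 12.59 to 14.51 in those 4 lines, 8.47 in KMOE-2 and 6.42 to 9.12 in the units, a difference without KMOE-2 of 6.04 ± 0.37 (adjusted p = 2.64e-11). CR1L, a complement receptor-like gene, was 8.77 to 10.89 in the 4 lines. In KMOE-2 it was 4.11, near the floor like the units, which ran from 4.15 to 5.11.

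On the lower side, TIMP2, a metalloproteinase inhibitor, was 5.21 in F-36P, 4.29 in HEL, 4.81 in KMOE-2, 4.95 in OCI-M1 and 5.27 in OCI-M2, against 6.13 to 12.48 (median 10.61). It was near the floor in all 5 lines and lower by a difference of -5.43 ± 0.65 (43.1-fold, adjusted p = 4.31e-06). PLAC8 (-5.54 ± 0.69, adjusted p = 5.88e-06) and IMPA2, an inositol monophosphatase (-5.29 ± 0.52, adjusted p = 1.97e-07), also had all 5 lines below all units. SLC2A5, the fructose transporter, was 4.49 to 5.06 in 4 lines and 9.06 in KMOE-2 against 8.81 to 14.13, a difference of -5.33 ± 0.68 (adjusted p = 8.04e-06), and 1 of its 4 probe sets had the opposite sign. RASSF4 was lower by -5.19 ± 0.95 (adjusted p = 0.000764) and CHI3L1, a secreted chitinase-like protein, by -5.03 ± 1.59 (adjusted p = 0.0424, or 0.0767 without KMOE-2). Without KMOE-2, DOCK10, CTSG, IRX3, RUNX3, EVI2A and CD93 were the next largest, from -5.65 for DOCK10 to -5.2 for CD93.

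**Figure D3:**
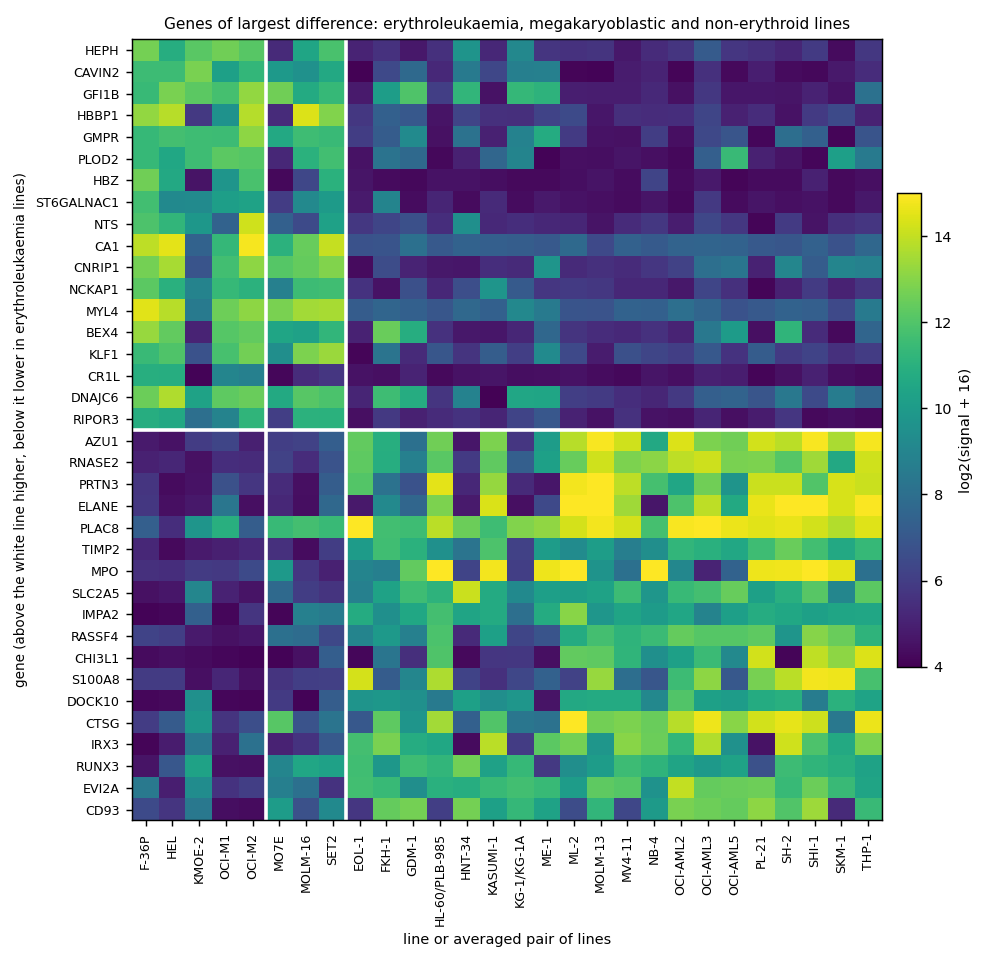
Heat map of log2(signal + 16), from 4 (dark) to 15 (yellow), for the genes of largest difference with all 5 lines and without KMOE-2, in the erythroleukaemia lines (left block), the megakaryoblastic lines (middle) and the 20 non-erythroid units (right). Most upper genes are bright in the left block, with darker cells in KMOE-2 such as HBZ (4.57), BEX4 (5.09) and CR1L (4.11), and most lower genes are dark there, with brighter cells in KMOE-2 such as DOCK10 (9.52) and SLC2A5 (9.06).

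KMOE-2 lay with the other lines at part of these genes. Each of the 601 genes called higher from the other 4 lines was set against the midpoint between their mean and the non-erythroid mean. KMOE-2 was on the erythroleukaemia side for 278 of them (46.3%), and for 361 of the 638 called lower (56.6%). Its median difference from the non-erythroid mean was 0.79 for the genes called higher, against 2.13 in the other 4 lines, and -0.89 against -1.54 for those called lower. For 405 of the 601 its level was within the range of the 20 units. The genes were chosen on the other 4 lines, which enlarges the medians of those lines, and KMOE-2 took no part in the choice. A smaller value in KMOE-2 is thus partly built in. Each left out in the same way, the other 4 lines were on the erythroleukaemia side for 57.5% to 69.8% of genes called higher. The range was 65% to 69.7% for genes called lower.

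By list, KMOE-2 was on the erythroleukaemia side for 4 of 6 transcription factors called higher (GATA1, TAL1, GFI1B and ZFPM1, not KLF1 or LDB1). The same held for 0 of 6 globin-list genes, 1 of 5 heme genes, 4 of 13 membrane genes and 0 of 4 red cell enzymes. It was with the other lines for 4 of 5 granule genes called lower without it, all but CTSG. HEPH and RHAG were as high in KMOE-2 as in the rest. The genes that lay farthest below the other lines in KMOE-2 were TUBB2A, a beta-tubulin (4.17 against a mean of 12.32), BEX4 (5.09 against 12.52) and LXN, latexin (4.2 against 11.48). Since KMOE-2 is 1 array, these values have no replicate check.

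**Figure D4:**
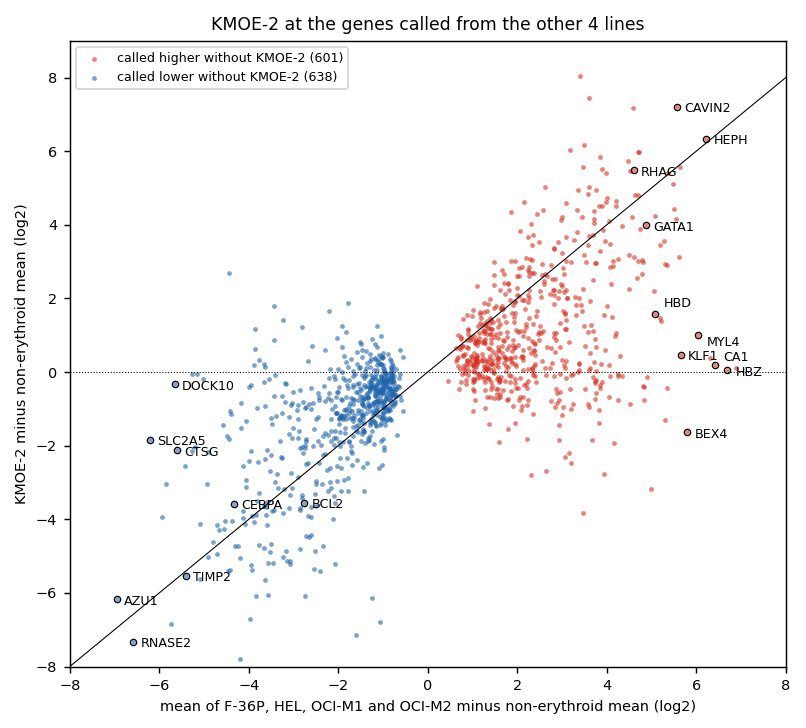
For each of the 601 genes called higher and 638 called lower without KMOE-2, the log2 difference from the non-erythroid mean in the other 4 lines (x axis) and in KMOE-2 (y axis), with the line of equal difference and a dotted line at 0. CAVIN2, HEPH and RHAG lie on or above the line, while HBZ, CA1 and KLF1 lie close to 0 in KMOE-2 and BEX4 lies below it.

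The other 4 lines also differed among themselves, and the genes in these 2 paragraphs beyond the named rule were chosen after their values were seen. The MHC class II gene HLA-DRA was 14.09 in F-36P, 7.03 in HEL, 4.41 in KMOE-2, 13.76 in OCI-M1 and 4.46 in OCI-M2, against 4.83 to 14.32 in the units. F-36P and OCI-M1 were also the highest 2 lines for HLA-DRB1, CD74 and HLA-DPA1, but HEL was 11.59 for HLA-DPA1, above the unit median of 8.5. CIITA, the class II activator, was highest in KMOE-2 at 7.35, and HLA-DOA was lowest in F-36P at 4.8. With limma none of the 10 class II genes tested was called, nor was any at an unadjusted p under 0.05. PARVG, FLI1, FCER1G and PECAM1 separated OCI-M1 and OCI-M2 from the rest. FLI1, the ETS factor of megakaryocytes, was 11.03 in F-36P, 12.77 in HEL and 12.4 in KMOE-2 but 4.38 in OCI-M1 and 4.15 in OCI-M2, below every other unit on the arrays tested (8.78 to 13.12). It was called lower without KMOE-2 (difference -3.44 ± 0.96, adjusted p = 0.0254) but not with it (adjusted p = 0.0805).

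The cell cycle inhibitor CDKN2A was 14.44 in KMOE-2, 13.98 in OCI-M2 and 13.05 in OCI-M1 but 6.86 in F-36P and 6.04 in HEL, against 6.57 to 12.38 in the units. RB1, the retinoblastoma gene, was 4.04 in KMOE-2, near the floor, and 9.86 to 11.49 in the other 4 lines against 10.71 to 11.78. HMGA2, a chromatin protein of fetal cells, was 13.34 in KMOE-2 and 5.33 to 9.19 in the other lines. PRDX2, a red cell peroxiredoxin, was 6.45 in OCI-M2 and 8.73 in KMOE-2 but 11.91 to 12.39 in the rest, and the epithelial gene EPCAM was 13.26 in OCI-M2 and at most 6.89 in the other 4.

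Megakaryocyte and platelet genes were also higher in part, with 5 of 18 called (ITGA2B, RAB27B, ITGB3, TUBB1 and GP6), none lower, and a median of 1.1. ITGB3 and TUBB1 among these, and PF4 and PPBP, passed the filter through the erythroleukaemia lines alone, so part of this count and median was built in. ITGA2B, the platelet integrin alpha chain, was 12.48 in F-36P, 12.93 in HEL, 13.11 in KMOE-2, 12.55 in OCI-M1 and 11.91 in OCI-M2, against 4.68 to 12.65 (median 8.04). ME-1 was its highest unit and the difference was 4.11 ± 1.06 (17.2-fold, adjusted p = 0.0139). RAB27B, a granule GTPase of platelets, was higher by 4.27 ± 1.16 (adjusted p = 0.0186), and GP6, the collagen receptor, by 1.58 ± 0.47 (adjusted p = 0.0304). Both lost the call without KMOE-2, at 0.0574 and 0.148. TUBB1, the platelet beta-tubulin, was 10.61 in HEL and 6.73 to 8.5 in the other lines against 4.85 to 6.75 (difference 2.06 ± 0.39).

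The platelet chemokine genes PF4 and PPBP were highest in HEL, at 10.74 and 9.9, against at most 6.4 and 5.19 in the other 4 lines. Averaged over the list, levels were 9.54 in HEL, 9.21 in KMOE-2, 7.45 in F-36P, 7.27 in OCI-M2 and 6.51 in OCI-M1, against 6.04 to 8.65 in the units. How far a megakaryocytic component of these lines enters the differences above was not tested.

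The megakaryoblastic lines, which took no part in the fit, shared much of the pattern. At the 673 genes called higher, SET2 was on the erythroleukaemia side of the midpoint for 79.6%, MOLM-16 for 66.3% and MO7E for 51.1%, and at the 771 called lower for 61.1%, 57.1% and 54.1%. SET2 and MOLM-16 had globins: the globin-list mean was 11 in SET2 and 9.69 in MOLM-16 but 5.98 in MO7E, the median of the non-erythroid units also being 5.98. GATA1 was 10.62 in SET2, 10.72 in MOLM-16 and 9.18 in MO7E, above every non-erythroid unit. When these 3 lines were added to the non-erythroid side, the calls fell to 319 higher and 419 lower, and 31 of the 88 called genes named here lost their call, among them TAL1, EPOR, ITGA2B and CEBPA.

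Each line was also placed at genes called without it. F-36P was on the erythroleukaemia side for 69.8% of genes called higher, OCI-M2 for 67.1%, OCI-M1 for 66.8%, HEL for 57.5% and KMOE-2 for 46.3%. The non-erythroid units reached 5.53% to 32.7% (median 17.5%), so none overlapped the 5 lines. For genes called lower the 5 lines had 56.6% to 69.7% and the units 7.03% to 47.7%, KG-1/KG-1A being highest. ME-1 and SKM-1 were the next units, with 35.7% and 36.2% of genes called lower.

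**Figure D5:**
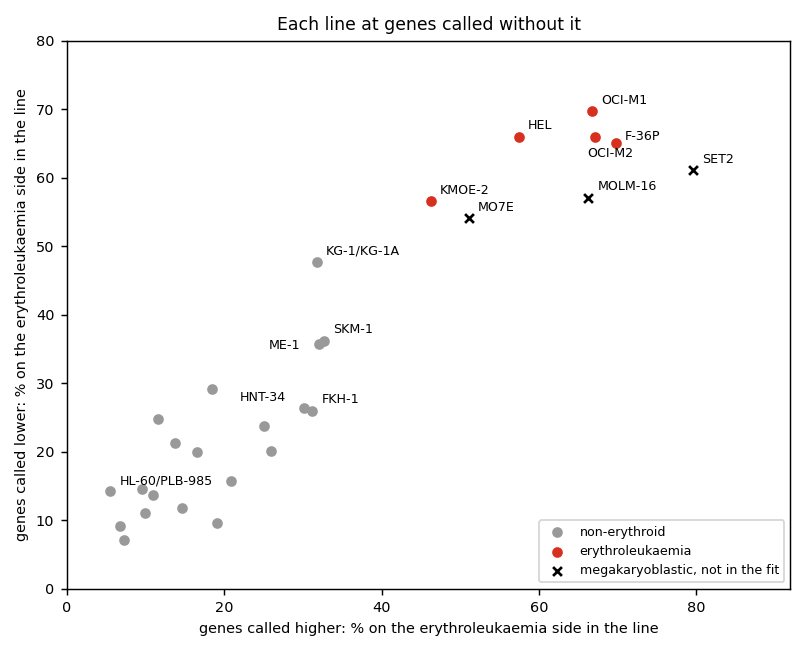
Percentage of genes called higher (x axis) and lower (y axis), with the line itself left out of the fit, at which a line lies on the erythroleukaemia side of the midpoint between the group means. The 5 erythroleukaemia lines (red) lie at 46.3% to 69.8% and 56.6% to 69.7%, beyond all 20 non-erythroid units (grey), and the 3 megakaryoblastic lines (crosses) lie among or near them.

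Among genes of a fetal programme 3 of 7 were called higher, none lower, with a median of 1.99. LIN28B, which blocks let-7 microRNAs and favours fetal globin, was 11.51 in F-36P, 12.97 in HEL, 12.43 in KMOE-2, 11.82 in OCI-M1 and 12.78 in OCI-M2, against 4.1 to 12.4 (median 6.44). SKM-1 lay within the range of the lines, and the difference was 4.67 ± 1.16 (25.5-fold, adjusted p = 0.0104). IGF2BP1, an RNA-binding protein of fetal cells, was higher by 3.87 ± 1.05 (adjusted p = 0.0182, or 0.0519 without KMOE-2). DLK1, a Notch-related ligand, was 15.32 in OCI-M2, 14.23 in KMOE-2 and 10.34 in HEL but 7.45 in F-36P and 5.32 in OCI-M1 (difference 4.34 ± 0.95, adjusted p = 0.00423).

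Of the NRF2 target and AKR1C list 4 of 12 genes were called higher, none lower, with a median of 0.97. AKR1C2, a steroid and aldehyde reductase, was 13.96 in F-36P, 7.88 in HEL, 10.15 in KMOE-2, 13.03 in OCI-M1 and 12.7 in OCI-M2, against 4.66 to 10.43 (median 5.96). F-36P, OCI-M1 and OCI-M2 were above every unit, and the difference was 4.84 ± 0.92 (adjusted p = 0.00102). AKR1C1 and AKR1C3 had the same 3 lines highest, but these genes are nearly identical and their probe sets may not tell them apart. Only 3 of the 5 AKR1C1 probe sets were higher. GCLM, a subunit of the enzyme for glutathione synthesis, was higher by 1.37 ± 0.29 (adjusted p = 0.00301).

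Most other lists showed few or no calls. The HOXB list still had a median difference of 1.96, with 8 of 9 genes positive. With limma, 5 of these were higher at an unadjusted p under 0.05, as were 1633 of all 14358 genes tested. In the HOXB list 1 of 9 genes tested was called, HOXB9, at 6.9 in F-36P, 10.11 in HEL, 12.34 in KMOE-2, 11.85 in OCI-M1 and 9.56 in OCI-M2 against 5.76 to 11.9 (2.98 ± 0.74, adjusted p = 0.0108). It lost the call without KMOE-2 (adjusted p = 0.0526). HOXB4 was 9.68 to 10.27 in the lines against 5.07 to 10.34 and was not called (adjusted p = 0.0692). Of 24 cell cycle genes 1 was called, the checkpoint kinase BUB1 (1.29 ± 0.34, adjusted p = 0.0145), a share close to the background. Only 3 of the 5 BUB1 probe sets had that sign. Its call was lost with averaged probe sets, with medium as a block and without OCI-M2. The proliferation markers PCNA and MCM2 differed by -0.05 and -0.14. FCER1A, the mast cell IgE receptor chain, was the one call of 7 mast cell and basophil genes, at 14.24 in HEL and 5.71 in KMOE-2 (3.72 ± 0.98, adjusted p = 0.0151). All 7 differences of that list were positive, with a median of 1.39. NKG7, a granule gene of natural killer cells, was lower by -3.89 ± 0.88 (adjusted p = 0.00554), the one call of 8 T and NK cell genes.

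With limma, none of 12 stem and progenitor genes, 3 HOXA cluster and cofactor genes, 11 MHC class I genes, 7 B cell genes or 8 stromal and epithelial genes was called. Over all 14358 genes tested, 1633 were higher and 1986 lower at an unadjusted p under 0.05. At this threshold there were 4 higher and 1 lower stem and progenitor genes and 1 lower B cell gene, and 0 in the other 3 lists. Median differences of these lists were -0.09, -0.9, -0.3, -0.25 and 0.09. The HOXA list had 3 of 13 genes tested and so says little of the cluster.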

How the data were processed

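Signal intensity per probe set, on a linear scale, was deposited by the authors for each array and was made with Affymetrix Expression Console, per the submitters' processing notes, with version and summarisation not given in the sources used here. The 2% trimmed mean was 500.05 to 500.07 on every array. No scaling was added, and levels are log2(signal + 16). Of 54675 probe sets, 41091 had 1 symbol in the platform table, and for each of 19775 genes the probe set of highest mean over 32 arrays was used. Genes above the median of all values (6.73) in at least 3 of 25 units were tested with limma 3.58.1 in R 4.3.3 (lmFit, then eBayes with trend), two-sided, adjusted by Benjamini and Hochberg's method. The model was tested on simulated data.

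Members and lists (26) were chosen with earlier results of these data known. Genes named are the 12 of largest called difference each way, 6 more each way without KMOE-2, up to 4 called members of each list (with fewer than 2, also the 2 of highest mean level), and PIM1, PIM2, PIM3, GATA1, KLF1, EPOR, JAK2, SPI1 and CEBPA. Any further gene in the text was picked with its values in view. Promoters are those of up to 3 called members of the globin, transcription factor and membrane lists with a RefSeq entry. Arrays have no read depth, and precision is limited by how many there are. Alternatives changed the pseudocount, filter, scaling, probe set rule, units and lines, and are given below. Plots were drawn with matplotlib 3.10.9.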

Additional observations from a re-analysis of the deposited data

Results flagged for a closer look

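In 14 of the genes named here, 1 erythroleukaemia line lay apart from the other 4, by a gap that takes up most of the group's range. Chance flags about 1 group in 20, and 110 genes were examined, so some of these would arise by chance. In 9 genes the line was KMOE-2. Of these, BEX4 and DOCK10 were named only through the fit without KMOE-2, a choice that favours genes where it lies apart. For such genes the rate of 1 in 20 does not hold. KMOE-2 was low for CNRIP1 (6.86, next line 11.68), BEX4 (5.09, next 12.09), KLF1 (6.79, next 11.47), TFR2 (7.4, next 11.73) and HK1 (11.17, next 13.01). It was high for SLC2A5 (9.06, next 5.06), DOCK10 (9.52, next 4.26), IRF5 (9.27, next 6.64) and HOXB3 (12.67, next 10.5). OCI-M1 was low for RAB27B (9.04, next 12.67) and high for ITGAL (7.92, next 5.69). OCI-M2 was high for GMPR (13.12, next 11.73) and for COL1A1, a collagen gene at the same low level on both sides (9.01, next 8.57). F-36P was high for the T cell receptor gene CD3D (9.2, next 6.12). Each line is 1 array, so none of these gaps has a replicate.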

How the results depend on the processing

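Among the 88 called genes named here, the sign changed only for FBXO7, at 0 with lines in RPMI without cytokine only. With those lines only, 18 of the 88 kept their call. Under the 40 other alternatives 52 kept every call, 31 lost it with the megakaryoblastic lines added, 10 without KMOE-2, and 16 under 5 or more: ELANE, MPO, CHI3L1, S100A8, S100A9, CSF1R, MNDA, IRX3, BEX4, PPOX, SLC40A1, HK1, FBXO7, RAB27B, GP6 and AKR1C3. The lines in RPMI without cytokine, 2 against 13 (1 against 13 without KMOE-2, the lone line assumed to vary like the units), gave 64 higher and 58 lower, and 45 and 33 without KMOE-2. With the megakaryoblastic lines added the counts were 319, 419, 262 and 315, and with medium as a block 363 higher without KMOE-2. Leaving out 1 erythroleukaemia line gave 442 to 595 higher and 500 to 638 lower, and without KMOE-2 362 to 543 and 378 to 500. Leaving out 1 unit gave 605 to 717 and 696 to 864, and 542 to 622 and 574 to 706. Other counts stayed within 1.5 times. Genes not called changed sign: PCNA 0.07 with median centring, 0.12 with NOMO-1 and GF-D8 added, 0.02 with the medium block and 0.18 in RPMI only; MSI2 -0.1 with averaged probe sets, -0.41 with the block and -0.11 in RPMI only; CD79A 0.05 with averaged probe sets; B2M 0.03 and COL1A1 -0.03 with NOMO-1 and GF-D8; and in RPMI only MCM2 0.29, PECAM1 1.05, COL1A1 -0.01 and PIM1 -0.34. Leaving out 1 line or unit turned MSI2 (range -0.11 to 0.43), MCM2 (-0.27 to 0.04), HLA-DRB1 (-1.48 to 0.38), PCNA (-0.16 to 0.09) and COL1A1 (0 to 0.14). The cause was not tested. No paired analysis was possible because the 2 sides are different lines with 1 array each. Levels near the floor limit how far a gene can be shown to fall.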
